A study of Arabidopsis thaliana with 24 samples.

Results

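Ethylene response factors (ERFs) that respond early to stress were followed as 10 named loci in the read count table of Arabidopsis thaliana seedlings: ERF1A (AT4G17500), ERF2 (AT5G47220), ERF4 (AT3G15210), ERF5 (AT5G47230), ERF6 (AT4G17490), ERF8 (AT1G53170), ERF11 (AT1G28370), ERF104 (AT5G61600), ERF105 (AT5G51190) and RAP2.6 (AT1G43160). They were chosen by locus, 10 of the 32833 genes listed, and all 10 passed the filter on low counts in every comparison. RNA came from whole seedlings of Col-0 wild type and of the exa1-1 mutant (exa1), 9 days old, grown on 1/2 MS medium with sucrose. Seedlings of each genotype were kept for 60 min on 1/2 MS (MS), with 200 mM NaCl (NaCl), at 23 °C or at 39 °C, which gives 8 groups of 3 libraries, 24 in all. MS and NaCl form a salt set, and 23 °C and 39 °C form a heat set with its own unstressed group. The series text names 3 independent biological replicates but not how the cultures were kept apart, and the p-values therefore rest on the spread among these libraries, which may be partly technical.

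ERFs are plant transcription factors with an AP2/ERF domain, and many bind the GCC box of defence genes. ERF1A, ERF2, ERF5, ERF6, ERF104 and ERF105 belong to a subgroup of transcriptional activators whose transcripts respond within minutes to wounding, pathogen signals, osmotic stress or touch. ERF4, ERF8 and ERF11 carry an EAR motif and act as repressors, and RAP2.6 belongs to another subgroup and is known as a gene induced by salt, abscisic acid and jasmonate. EXA1 encodes a GYF-domain protein that binds cap-binding initiation factors and has been linked to repression of translation. The exa1 libraries came from 1 mutant line and held 143 to 342 EXA1 reads, against 1488 to 3111 in the wild type, so the transcript was reduced but present in all mutant libraries. Libraries held 17600922 to 21557382 reads assigned to genes.

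ERF6 and ERF1A are neighbours on chromosome 4, with 5042 bases between them and opposite orientation, and ERF2 and ERF5 are neighbours on chromosome 5, with 6925 bases between them, also transcribed away from each other. All members were annotated with 1 exon except RAP2.6, which had 2. The transcripts shared almost no sequence with other genes: of all stretches of 31 bases, 1 in ERF6 and 2 in RAP2.6 occurred elsewhere in the genome, and none in the other members. ERF105 is the exception for counting, because its whole transcript, 965 bases, lies within the gene AT5G51180 on the other strand, which had 652 to 1914 reads per library. The library kit kept the strand, but the strand setting of the counting is not given in the sources used here, so ERF105 values are less certain than the rest.

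The 250 bases before the annotated transcript start were read from the RefSeq genome TAIR10.1 with its own annotation (the submitters' notes name TAIR10) and searched on both strands for 7 short motifs. The 4 promoters shown are those of the neighbours ERF6 and ERF1A, which went in opposite directions with heat in the wild type, of ERF2, which shares the longest stretch with ERF1A, and of RAP2.6, which had the largest response to salt. They are written 5′ to 3′ with matches in capitals: G box CACGTG, ABRE core ACGTG (which lies inside every G box), W box core TTGAC, heat shock element core GAANNTTC, GCC box GCCGCC, DRE core CCGAC and CGCG box CGCGT.
ERF1A (chr4:9758953-9759202, plus strand): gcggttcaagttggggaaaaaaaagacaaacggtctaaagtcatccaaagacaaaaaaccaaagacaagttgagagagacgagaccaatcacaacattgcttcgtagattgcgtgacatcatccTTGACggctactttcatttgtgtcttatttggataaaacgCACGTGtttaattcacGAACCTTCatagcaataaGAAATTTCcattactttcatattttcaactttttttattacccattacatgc
ERF2 (chr5:19172957-19173206, minus strand): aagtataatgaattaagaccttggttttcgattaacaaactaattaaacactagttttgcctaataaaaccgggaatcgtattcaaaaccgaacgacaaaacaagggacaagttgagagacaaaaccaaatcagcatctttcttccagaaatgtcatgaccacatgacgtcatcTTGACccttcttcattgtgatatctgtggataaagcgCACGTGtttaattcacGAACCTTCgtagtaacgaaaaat
ERF6 (chr4:9754162-9754411, minus strand): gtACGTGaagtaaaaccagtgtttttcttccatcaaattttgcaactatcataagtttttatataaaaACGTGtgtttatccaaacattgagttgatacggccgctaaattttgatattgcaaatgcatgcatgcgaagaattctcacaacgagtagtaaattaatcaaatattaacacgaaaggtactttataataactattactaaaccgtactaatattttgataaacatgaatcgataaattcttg
RAP2.6 (chr1:16263555-16263804, plus strand): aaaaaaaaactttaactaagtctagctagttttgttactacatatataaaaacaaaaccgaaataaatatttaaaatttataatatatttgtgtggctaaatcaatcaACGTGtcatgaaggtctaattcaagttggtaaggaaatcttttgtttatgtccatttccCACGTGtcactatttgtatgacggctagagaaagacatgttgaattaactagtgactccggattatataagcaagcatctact

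A G box lay in 5 of the 10 members (ERF1A, ERF2, ERF4, ERF8 and RAP2.6), against 6.49% of 27443 promoters of protein-coding genes. The ABRE core, the element named for its role in responses to abscisic acid, was found in 7 members against 22.9% of promoters. The W box core lay in 6 members against 44.9%, and the heat shock element core in 3 members (ERF1A, ERF2 and ERF104) against 9.57%. The GCC box itself was found before ERF11 alone, against 1.87% of promoters, the DRE core before ERF5 alone, against 12.0%, and the CGCG box before no member, against 6.89%. ERF1A and ERF2 shared an unbroken run of 26 bases, the longest of 45 pairs of members, which holds the G box and a heat shock element core and starts 88 bases before ERF1A and 41 before ERF2.
ERF1A and ERF2: cgcacgtgtttaattcacgaaccttc
ERF4 and ERF8: aacacgtggcaaaa
The repressors ERF4 and ERF8 shared 14 bases around their G box, starting 185 and 82 bases before the transcript start. Every other pair shared at most 12 bases, and the median pair shared 9. These matches describe the letters in the window and say nothing of binding.

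**Figure D1:**
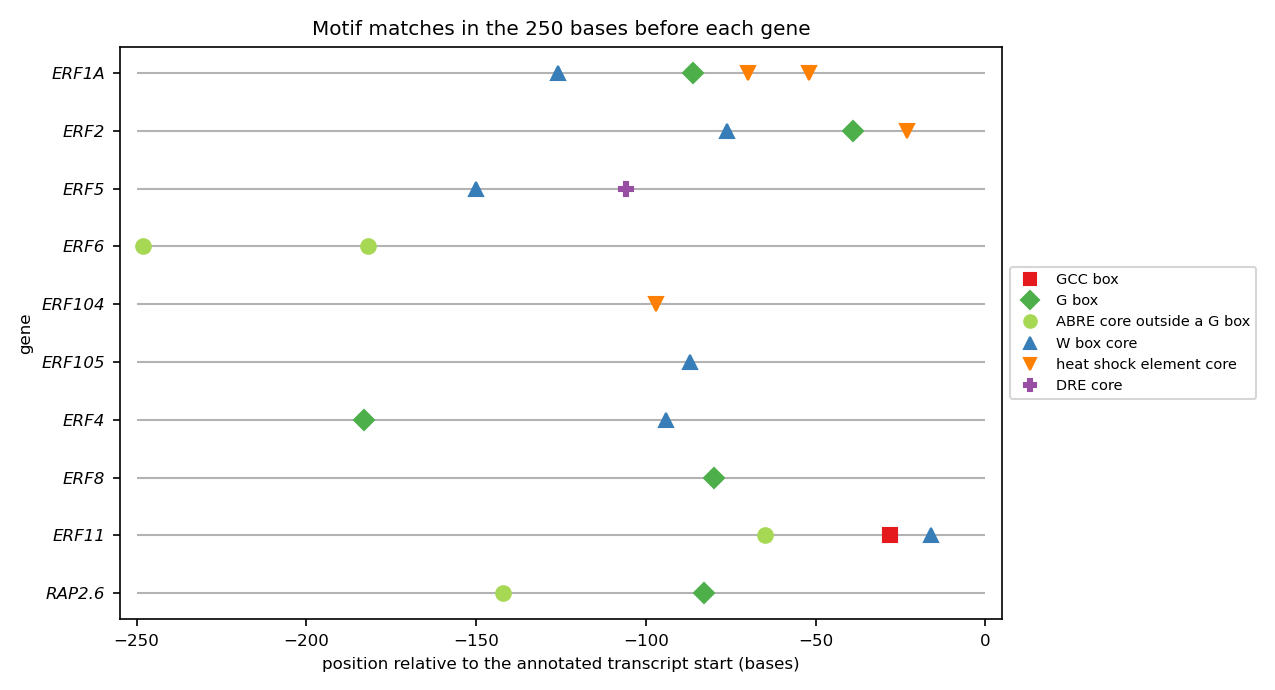
Matches of the searched motifs in the 250 bases before each ERF gene; the x axis is the distance from the annotated transcript start in bases and each symbol is the first base of a match on either strand. The G box lies before 5 genes, and the heat shock element core before ERF1A, ERF2 and ERF104.

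Per transcript length (FPKM, mean ± SD, n = 3), the members spanned a wide range of levels in unstressed wild type. On MS, RAP2.6 was the most abundant at 116 ± 3.15 FPKM, followed by ERF4 at 76.7 ± 2.99 and ERF1A at 69.9 ± 0.658, and the repressor ERF11 was lowest at 2.64 ± 0.314. At 23 °C the order was different: ERF104 at 30.3 ± 0.855 FPKM and ERF1A at 29.3 ± 1.62 led, with RAP2.6 at 4.59 ± 1.05. With NaCl, RAP2.6 reached 557 ± 9.79 FPKM, far above ERF4 at 94.4 ± 3.24 and ERF1A at 90.8 ± 0.609. At 39 °C, ERF4 at 17.8 ± 2.34 and ERF6 at 16.8 ± 2.97 FPKM were highest. The levels given next for one gene at a time are in CPM, reads of the gene per library size, scaled by TMM over all 24 libraries.

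**Figure D2:**
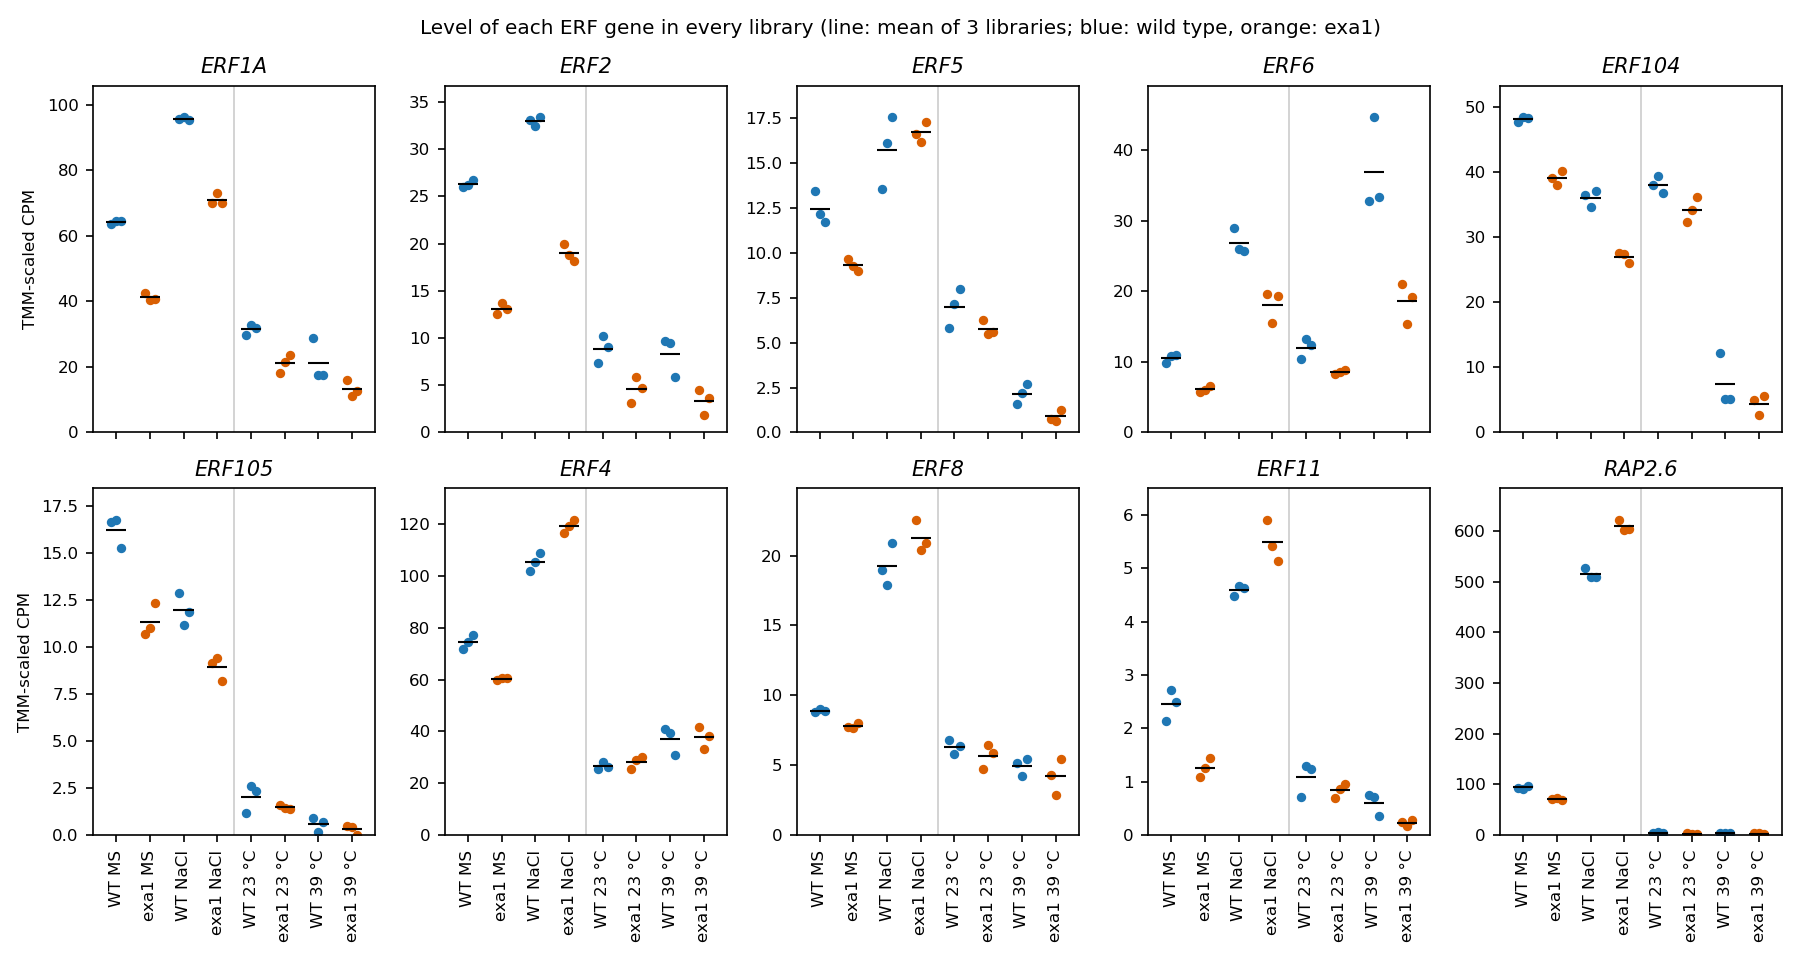
Level of each ERF gene in all 24 libraries in CPM scaled by TMM, 3 libraries per group, with a line at the group mean; the y axis starts at 0 and differs between panels. RAP2.6 stands at 509 to 622 CPM with NaCl and under 6 CPM in the heat set, while ERF6 is the only gene with its highest group at 39 °C.

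The labelled tissue holds shoot and root, and all 5 shoot and 8 root markers had reads in every library. The summed level of 5 shoot markers was 9183 to 9497 CPM in the wild type and 6563 to 6690 in exa1 on MS, and that of 8 root markers 2028 to 2055 and 1876 to 1921. All 5 shoot markers and 2 of the root markers were lower in exa1 on MS, and 6 root markers were higher. With NaCl the shoot sum was 16320 to 16752 and 9718 to 9893, and the root sum 821 to 830 and 906 to 930. At 23 °C the shoot sum was 21661 to 24720 in the wild type and 21293 to 23194 in exa1. At 39 °C it was 45045 to 53526 and 35872 to 38770. The root sum was 1611 to 1725 and 1492 to 1724 at 23 °C, and 440 to 478 and 512 to 554 at 39 °C. Their part in the ERF results was not tested, and fewer cells of a type and less RNA per cell cannot be told apart in whole seedlings. The 7 markers of salt and heat, summed together, stood at 263 to 317 CPM on MS and 3650 to 4388 with NaCl. At 23 °C this sum was 45.3 to 56.6 and at 39 °C 39949 to 49897. In the wild type 5 of the 6 tested were higher with NaCl and all 7 at 39 °C, where 36.9% and 36.6% of all genes were. The sum therefore does not check the salt and heat labels one by one. Between the unstressed wild-type groups, 4 of 6 were lower at 23 °C than on MS and 1 higher.

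On MS, exa1 had lower levels of nearly the whole group. Of the 10 ERFs, 9 were lower in exa1 and 0 higher, where 16% of the 21759 genes tested were lower and 13.3% higher at an adjusted p under 0.05. The median log2 difference of exa1 over wild type was -0.47 for the 10 genes and 0.00 for all genes.
ERF2, an activator of jasmonate-responsive defence genes, differed most, with 26.0, 26.2 and 26.7 CPM in the wild type and 12.5, 13.7 and 13.1 in exa1. Its level in exa1 was 2.01-fold lower (log2 -1.0 ± 0.07 SE, adjusted p = 7.03e-29).
ERF11, a repressor reported to act on ethylene synthesis genes, had 2.15, 2.72 and 2.50 CPM in the wild type and 1.08, 1.26 and 1.44 in exa1 (log2 -0.96 ± 0.21, adjusted p = 0.000115), from 58 to 76 reads against 26 to 37.
ERF6, a factor phosphorylated by the MAP kinases MPK3 and MPK6, had 9.81, 10.8 and 11.0 against 5.79, 6.01 and 6.56 CPM (log2 -0.78 ± 0.10, adjusted p = 2.55e-11).
ERF1A, its neighbour, had 63.6, 64.4 and 64.5 against 42.6, 40.3 and 40.6 CPM (log2 -0.64 ± 0.04, adjusted p = 4.52e-31).
In all of these the 3 mutant libraries lay below the 3 wild-type libraries, and so they did for each of the 10 members. The share of all genes that separate in this way was not counted, so the separation is a description only. The other called differences were smaller: ERF105 -0.52, ERF5 -0.42, RAP2.6 -0.40, ERF4 -0.30 and ERF104 -0.30 on the log2 scale. ERF8, at 8.81 to 9.05 against 7.66 to 8.03 CPM, did not pass the test (log2 -0.19 ± 0.10, adjusted p = 0.145). In the fit over all 24 libraries ERF104 no longer passed (adjusted p = 0.166).

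With NaCl the called genotype differences went both ways, the count of higher members being near the share of all genes. Lower in exa1 were 5 members, all of them activators (ERF1A, ERF2, ERF6, ERF104 and ERF105), against 17.2% of genes, and higher were 2, the repressor ERF4 and RAP2.6, against 18.6% of genes.
RAP2.6 had 527, 509 and 510.1 CPM in salt-treated wild type and 622, 603 and 603 in exa1, with no overlap between the groups, a 1.2-fold difference (log2 0.26 ± 0.02, adjusted p = 8.71e-21). On MS the order was the opposite, 93.4, 91.7 and 96.6 CPM in the wild type against 70.2, 73.0 and 69.7 in exa1.
ERF4 crossed in the same way, from 71.9, 74.5 and 77.4 against 59.9, 60.6 and 60.7 CPM on MS to 102, 105 and 109 against 117, 119 and 122 with NaCl (log2 0.20 ± 0.04, adjusted p = 1.02e-06).
ERF2 remained the member with the largest difference, 33.1, 32.5 and 33.4 CPM in the wild type against 20.0, 18.8 and 18.2 in exa1 (log2 -0.77 ± 0.07, adjusted p = 4.31e-21). ERF6 was lower by a log2 difference of -0.55, ERF1A of -0.41, ERF105 of -0.40 and ERF104 of -0.39. ERF11 (log2 0.28, adjusted p = 0.17, also with no overlap between the groups), ERF8 (0.16, 0.1) and ERF5 (0.10, 0.382) did not pass. In the fit over all 24 libraries ERF4 (adjusted p = 0.0904) and ERF105 (0.0566) did not pass either, and with FPKM ERF8 passed as higher in exa1 (log2 0.18, adjusted p = 0.0317).

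**Figure D3:**
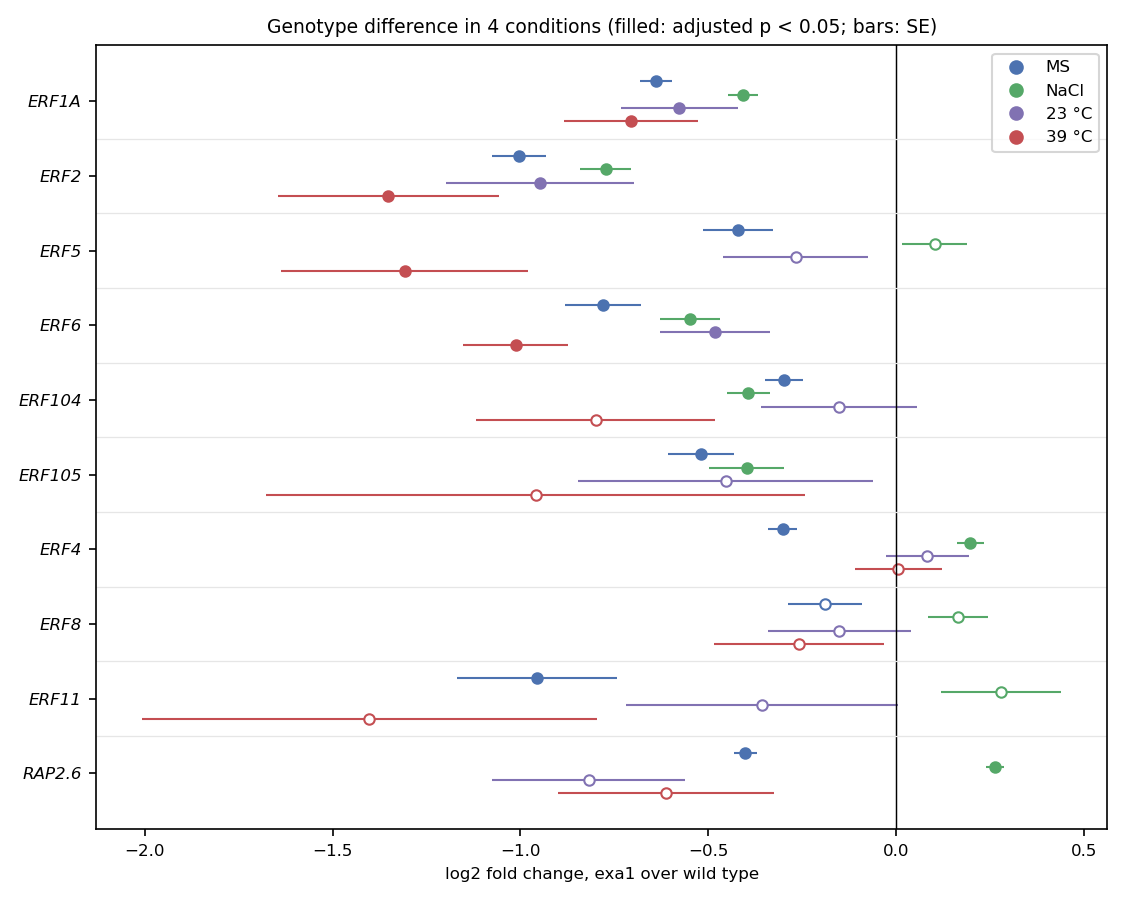
Log2 fold change of exa1 over wild type for each ERF gene in the 4 conditions; bars are the SE and filled circles passed an adjusted p of 0.05. On MS all 10 values lie below 0, and with NaCl RAP2.6 and ERF4 lie above 0 and passed.

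Salt changed every member in both genotypes in counts scaled by TMM. In the wild type 8 rose and 2 fell, where 36.9% of genes were higher and 37.6% lower, and in exa1 the same split of 8 and 2 was found, with 37.1% and 37.9% of genes. With so many genes called in either direction, the count of members called, in either direction, says little, and the sizes carry the description. With FPKM, ERF5 did not pass in the wild type (log2 0.13, adjusted p = 0.195, against 0.29 with TMM).
RAP2.6 rose from 93.4, 91.7 and 96.6 CPM on MS to 527, 509 and 510.1 with NaCl in the wild type, 5.31-fold (log2 2.41 ± 0.03, adjusted p = 2.78e-146). In exa1 it rose 8.43-fold, from 70.2, 73.0 and 69.7 to 622, 603 and 603 CPM.
Among the activators, ERF6 rose 2.47-fold in the wild type, to 28.9, 25.9 and 25.7 CPM, and 2.90-fold in exa1, to 19.6, 15.5 and 19.3 CPM. ERF1A rose 1.44-fold and 1.69-fold, ERF5 1.23-fold and 1.76-fold, and ERF2 1.21-fold and 1.42-fold, in the wild type and exa1.
ERF104, which forms a complex with MPK6, and ERF105, known from cold responses, went the other way. ERF104 fell from 47.8, 48.4 and 48.3 to 36.5, 34.6 and 37.0 CPM in the wild type (log2 -0.46 ± 0.05, adjusted p = 2.6e-15) and from 39.1, 38.1 and 40.2 to 27.6, 27.4 and 26.1 in exa1 (log2 -0.56 ± 0.06). ERF105 fell by a similar amount, log2 -0.49 ± 0.09 in the wild type and -0.37 ± 0.10 in exa1, the second with adjusted p = 0.0526 in the fit over all 24 libraries. The levels of both in the 2 conditions did not overlap in either genotype.
The 3 repressors rose. ERF8 rose 2.09-fold in the wild type and 2.67-fold in exa1, ERF4 1.37-fold and 1.94-fold, and ERF11 1.81-fold and 4.25-fold.

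The salt response differed between genotypes for 6 of the 10 members, tested as the interaction of genotype and salt, and all 6 had the larger log2 response in exa1, where 11.6% of genes had an interaction called higher and 9.61% one called lower.
ERF11 had the largest difference: its libraries went from 2.15, 2.72 and 2.50 to 4.49, 4.67 and 4.63 CPM in the wild type and from 1.08, 1.26 and 1.44 to 5.91, 5.42 and 5.14 in exa1. The response in exa1 was larger by log2 1.23 ± 0.27 (adjusted p = 9.32e-05).
RAP2.6 differed by 0.66 ± 0.04 (adjusted p = 5.32e-37), ERF5 by 0.52 ± 0.13 (0.000636) and ERF4 by 0.50 ± 0.05 (8.31e-16). ERF8 (0.35, adjusted p = 0.0324) and ERF1A (0.23, 0.00103) passed with smaller differences.
All 3 repressors are among the 6. For ERF2 (log2 0.23, 95% interval 0.00 to 0.46), ERF6 (0.23, -0.07 to 0.53), ERF104 (-0.10, -0.27 to 0.08) and ERF105 (0.12, -0.19 to 0.43) the difference did not pass. With FPKM the ERF2 interaction passed (log2 0.21, adjusted p = 0.0353). The fit over all 24 libraries left 3 of the 6, RAP2.6, ERF4 and ERF11, and lost ERF1A (adjusted p = 0.496), ERF5 (0.0608) and ERF8 (0.27). DESeq2 also lost ERF8 (adjusted p = 0.0699), and so did leaving out the second or the third wild-type replicate on MS, the first or second wild-type replicate with NaCl, the first or second exa1 replicate on MS or the first exa1 replicate with NaCl, with an adjusted p between 0.0571 and 0.116. Since the genotypes began from different levels on MS, the interaction compares ratios and not the levels reached.

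With heat, ERF6 rose and ERF104, ERF5, ERF105 and ERF1A fell in both genotypes on the TMM scale. In all, 2 of the 10 members were higher at 39 °C than at 23 °C in the wild type and 4 lower, where 36.6% of 21196 genes were higher and 38.6% lower, and in exa1 2 were higher and 5 lower, with 36.3% and 39.7% of genes, so the count of higher members lay under the background and that of lower members near it. The scaling matters here: the median log2 change of all genes was -0.06 (wild type) and -0.09 (exa1) with TMM and -0.69 and -0.68 with limma on log2(FPKM + 1), the FPKM scale below, which understates the change of low genes.
ERF6 had 10.4, 13.3 and 12.4 CPM at 23 °C and 32.8, 44.6 and 33.4 at 39 °C in the wild type, a 3.17-fold rise (log2 1.66 ± 0.14, adjusted p = 9.26e-10), and log2 0.69 on the FPKM scale (adjusted p = 0.000399). In exa1 its level went from 8.29, 8.57 and 8.91 to 21.0, 15.4 and 19.2 CPM (log2 1.13 ± 0.15, adjusted p = 7.28e-07), a change that did not pass on the FPKM scale (log2 0.21, adjusted p = 0.169).
ERF4 went from 25.5, 28.2 and 26.2 to 41.1, 39.5 and 30.7 CPM in the wild type, a log2 change of 0.52 ± 0.11 with TMM (adjusted p = 0.000329) but of -0.38 with FPKM (adjusted p = 0.00543), and in exa1 log2 0.44 turned to -0.42 (adjusted p = 0.00264), so no direction can be given for ERF4 apart from the scale.
The falls held on both scales, but the FPKM scale moves all genes downward with heat and so is a weak check of a fall. ERF104 went from 38.0, 39.4 and 36.8 CPM at 23 °C to 12.3, 5.20 and 5.07 at 39 °C in the wild type, 4.88-fold lower (log2 -2.29 ± 0.25, adjusted p = 9.67e-07). In exa1 it went from 32.3, 34.2 and 36.2 to 5.03, 2.65 and 5.63 CPM, 7.64-fold lower. The first wild-type replicate at 39 °C stood above the other two for ERF104 and for ERF1A, yet all 39 °C libraries lay below all 23 °C libraries of their genotype for both genes.
ERF5, which with ERF6 limits leaf growth under osmotic stress, fell from 5.78, 7.12 and 7.98 to 1.57, 2.20 and 2.71 CPM in the wild type (log2 -1.64 ± 0.23, adjusted p = 2.26e-06) and from 6.26, 5.47 and 5.60 to 0.754, 0.642 and 1.27 in exa1 (log2 -2.68 ± 0.28). ERF105 had log2 changes of -1.70 ± 0.50 and -2.20 ± 0.58, from 26 to 56 reads at 23 °C to 0 to 11 reads at 39 °C over both genotypes, where the exa1 library without a read allows a level of up to 0.272 CPM (3 counts, counting error only).
ERF1A fell by less, log2 -0.52 ± 0.16 in the wild type (adjusted p = 0.00787) and -0.64 ± 0.17 in exa1 (0.00249). Without the first wild-type replicate at 39 °C the wild-type change was -0.81. ERF11 was lower in exa1 (log2 -1.83 ± 0.54, adjusted p = 0.00418), on 2 to 3 reads per library at 39 °C, and did not pass in the wild type (-0.79, 0.0983; 0.0469 without the first replicate at 23 °C and 0.032 in the fit over all 24 libraries). In the heat set ERF11, with 14 to 29 reads at 23 °C, and ERF105 passed the filter on low counts through their 23 °C groups. For these genes a fall could be seen more readily than a rise. ERF2 (log2 -0.04 and -0.44) and RAP2.6 did not pass in either genotype with TMM. ERF8 (log2 -0.32, adjusted p = 0.17 in the wild type and -0.42, 0.0771 in exa1) did not pass either. It passed as lower in the fit over all 24 libraries in both genotypes (adjusted p = 0.0466 and 0.0183), and in exa1 also without the first exa1 replicate at 23 °C (0.0425) or the third at 39 °C (0.0184). In the wild type all 10 members passed with FPKM, ERF6 alone as higher. Of all genes called on that scale 14.2% were higher, so the count of lower members says little.
RAP2.6, the member with the largest salt response, had 4.28, 5.40 and 3.35 CPM at 23 °C and 4.89, 4.85 and 3.15 at 39 °C in the wild type, overlapping groups (log2 0.03 ± 0.26, adjusted p = 0.915; -0.67 and 0.00733 with FPKM).

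**Figure D4:**
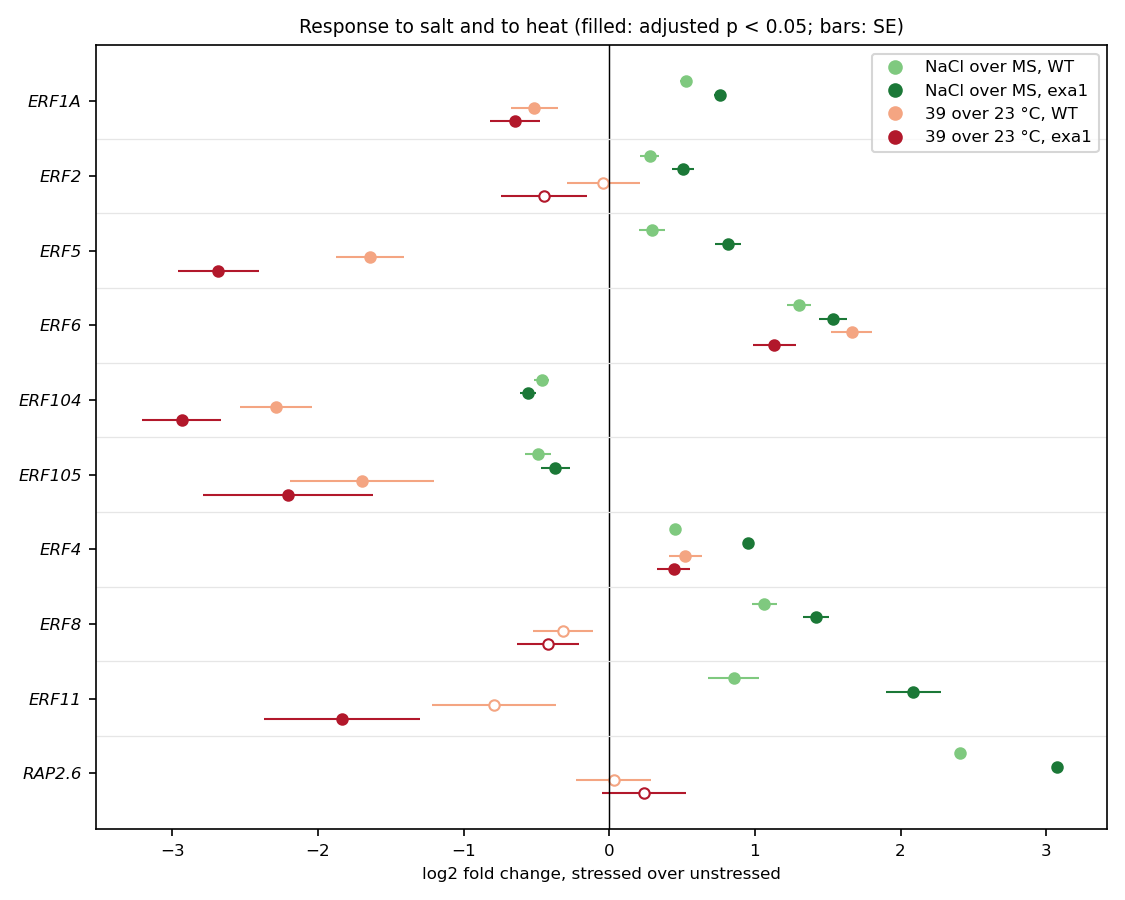
Log2 fold change of each ERF gene for NaCl over MS and for 39 over 23 °C in wild type and exa1, on the TMM scale; bars are the SE and filled circles passed an adjusted p of 0.05. For salt 8 genes lie above 0 in both genotypes, RAP2.6 farthest, and ERF104 and ERF105 lie below. For heat ERF5, ERF104 and ERF105 lie lowest, and only ERF6 and ERF4 passed above 0.

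In the heat set every member called between the genotypes was lower in exa1, and the spread between replicates was larger than in the salt set, with a chi-square over degrees of freedom between replicate pairs of 3.36 to 19.3 against 1.67 to 2.19. At 23 °C, 3 members were lower in exa1 and 0 higher, where 4.26% of genes were lower and 3.28% higher. They were ERF2, with 7.33, 10.2 and 9.08 CPM in the wild type and 3.16, 5.83 and 4.74 in exa1 (log2 -0.95 ± 0.25, adjusted p = 0.0258), ERF1A (log2 -0.58 ± 0.16, adjusted p = 0.0295) and ERF6 (log2 -0.48 ± 0.15, adjusted p = 0.0474). In each the mutant libraries lay below all wild-type libraries, but so they did for ERF104, which was not called. The share of all genes that separate in this way was not counted, so the separation is a description only. With FPKM 0 members passed. With 1 library left out between 0 and 4 passed, 0 without the second wild-type replicate at 23 °C and 1 without the third or without any 1 of the 3 exa1 replicates at 23 °C. ERF1A was also lost without the first wild-type replicate at 23 °C (adjusted p = 0.0511) and ERF6 without the third exa1 replicate at 39 °C (0.0592). RAP2.6 passed without the third wild-type replicate at 23 °C (adjusted p = 0.0484), the first exa1 replicate at 23 °C (0.0293), or the first (0.0431) or the third (0.0358) wild-type replicate at 39 °C. It also passed in the fit over all 24 libraries (0.00108), without a filter on low counts (0.0414) and with only the 6 libraries compared (0.032), against 0.0566 at log2 -0.82 in the fit of the heat set. ERF105 (log2 -0.45), ERF11 (-0.36), ERF5 (-0.27), ERF104 (-0.15), ERF8 (-0.15) and ERF4 (0.08) did not pass, with adjusted p values between 0.46 and 0.737.
At 39 °C, 4 members were lower in exa1 and 0 higher, where 8.03% of genes were lower and 7.45% higher.
ERF6 had 32.8, 44.6 and 33.4 CPM in heated wild type and 21.0, 15.4 and 19.2 in exa1, 2.02-fold lower (log2 -1.01 ± 0.14, adjusted p = 0.000101).
ERF2 had 9.69, 9.52 and 5.86 against 4.53, 1.84 and 3.63 CPM (log2 -1.35 ± 0.29, adjusted p = 0.00501).
ERF5 had 1.57, 2.20 and 2.71 against 0.754, 0.642 and 1.27 CPM (log2 -1.31 ± 0.33, adjusted p = 0.0106), on 8 to 14 reads in the mutant.
Wild-type and mutant libraries were apart in all 3 and for ERF1A, but also for ERF11 and RAP2.6, which were not called. ERF1A (log2 -0.71 ± 0.18, adjusted p = 0.0123) lost its call without the first wild-type replicate at 39 °C (log2 -0.41, adjusted p = 0.0851), the second exa1 replicate (0.0796) or the third (0.053). ERF5 was lost without the second exa1 replicate at 39 °C (adjusted p = 0.0667), ERF104 passed without the third wild-type replicate (adjusted p = 0.04), and leaving out 1 library moved the count between 2 and 5. The fit over all 24 libraries called 6 members lower, adding ERF104 (log2 -0.79, adjusted p = 0.03) and RAP2.6 (-0.59, 0.0446). That fit also called more of all genes at 39 °C, as given in the last paragraph, so the larger count carries no added weight. In the fit of the heat set ERF104 (log2 -0.80, adjusted p = 0.107), RAP2.6 (-0.61, 0.157), ERF11 (-1.40, 0.123), ERF105 (-0.96, 0.395) and ERF8 (-0.26, 0.479) did not pass. ERF4 had overlapping levels in the 2 genotypes, 41.1, 39.5 and 30.7 against 41.8, 33.3 and 38.1 CPM (log2 difference 0.01, 95% interval -0.26 to 0.27).
The interaction of genotype and heat passed for 0 of the 10 members by edgeR, by DESeq2 and by limma on FPKM, where 0.849% of genes were called higher and 0.788% lower. The share of all genes at an unadjusted p under 0.05 was not counted. At that threshold edgeR gave 2 members, ERF5 (log2 -1.04 ± 0.38, adjusted p = 0.164) and ERF6 (log2 -0.53 ± 0.20, adjusted p = 0.179). The log2 differences of the others, none of which passed, were -1.04 for ERF11, -0.65 for ERF104, -0.51 for ERF105, -0.40 for ERF2, -0.13 for ERF1A, -0.11 for ERF8, -0.08 for ERF4 and 0.21 for RAP2.6. The 95% intervals were wide, -1.93 to -0.16 for ERF5 and -2.68 to 0.59 for ERF11.

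Set side by side in the wild type, the responses to salt and to heat differed for 7 members, all higher in salt, where 38.7% of 22226 genes had the higher response in salt and 32% in heat. The median of all genes was shifted by 0.13 on the log2 scale in this comparison, and by 0.52 with FPKM. RAP2.6 differed most (log2 2.45 ± 0.19, adjusted p = 1.07e-12), followed by ERF5 (2.02 ± 0.22, 5.34e-10), ERF104 (1.90 ± 0.23, 1.53e-07), ERF11 (1.73), ERF8 (1.46), ERF105 (1.29) and ERF1A (1.12). ERF105 was at 0.84 and did not pass (adjusted p = 0.0723) without the second replicate at 39 °C. For ERF104 and ERF105 this means a smaller fall with salt than with heat. ERF6 rose in both stresses by amounts whose difference did not pass with TMM (log2 -0.28 ± 0.17, adjusted p = 0.13), while with FPKM the difference passed with the opposite sign (0.38, adjusted p = 0.0484). ERF2 (0.40, adjusted p = 0.114) and ERF4 (0.01, 0.934) did not pass with TMM. With FPKM both passed as higher in salt, ERF2 at 0.93 (adjusted p = 0.00191) and ERF4 at 0.67 (1.6e-05). With TMM, ERF2 passed without the first replicate at 23 °C (adjusted p = 0.0481) and ERF6 without the first at 39 °C (0.0393). The 2 responses have their own unstressed groups, and the groups differed, as follows.

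The unstressed wild-type groups of the salt and heat sets had very different ERF levels. At 23 °C, 9 of the 10 members were lower than on MS and 0 higher, where 33.4% of 21529 genes were lower and 33.6% higher; the median was -1.11 for the members and -0.01 for all genes on the log2 scale.
RAP2.6 had 93.4, 91.7 and 96.6 CPM on MS and 4.28, 5.40 and 3.35 at 23 °C, 21.8-fold lower (log2 -4.45 ± 0.12, adjusted p = 9.57e-17).
ERF105 had 16.7, 16.8 and 15.3 against 1.15, 2.61 and 2.33 CPM, 8.05-fold lower (log2 -3.01 ± 0.16, adjusted p = 1.73e-16).
From MS to NaCl the wild type changed by log2 2.41 for RAP2.6 and -0.49 for ERF105. From MS to 23 °C the log2 difference was -1.57 for ERF2, -1.49 for ERF4, -1.19 for ERF11, -1.03 for ERF1A, -0.84 for ERF5, -0.50 for ERF8 and -0.34 for ERF104. ERF6 was the exception, with 9.81, 10.8 and 11.0 CPM on MS and 10.4, 13.3 and 12.4 at 23 °C (log2 0.18 ± 0.11, adjusted p = 0.124, or 0.029 without the first replicate at 23 °C).
In exa1, 8 members were lower at 23 °C and 1 higher, with 33.8% and 33.7% of genes. RAP2.6 was 28.9-fold lower, and the log2 difference was -2.94 for ERF105, -1.51 for ERF2, -1.10 for ERF4, -0.96 for ERF1A, -0.68 for ERF5, -0.45 for ERF8 and -0.19 for ERF104, the last not passing in the fit over all 24 libraries (adjusted p = 0.24). ERF11 did not pass (-0.58, adjusted p = 0.0884) except with FPKM (-0.43, 0.0112). The higher member was ERF6 (log2 0.49 ± 0.12, adjusted p = 0.000542), which did not pass with FPKM (log2 0.20, adjusted p = 0.0622).
The genotype difference itself differed between the unstressed groups for 1 member, where 4.71% of genes were called higher and 2.53% lower: ERF4 was lower in exa1 on MS and not at 23 °C, a difference of log2 0.39 ± 0.09 (adjusted p = 0.0052), or 0.0502 in the fit over all 24 libraries. RAP2.6 passed as well without the first exa1 replicate at 23 °C (log2 -0.72, adjusted p = 0.029), and did not with all libraries (-0.41, adjusted p = 0.296). For ERF11 (0.60), ERF6 (0.31), ERF5 (0.16), ERF104 (0.15), ERF1A (0.07), ERF2 (0.07), ERF105 (0.07) and ERF8 (0.04) the difference did not pass. The labels give no further difference between MS and 23 °C, and set, handling and time of harvest cannot be told apart in this comparison. Of 18 rapid stress and touch genes, 17 were tested and 15 were lower at 23 °C in the wild type and 0 higher, with JAZ1 at log2 -3.32 ± 0.09 (adjusted p = 7.51e-18); their part in the ERF differences was not tested.

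Ordered by mean CPM, the 8 groups stood in a different order for different members. RAP2.6, ERF4, ERF8, ERF11 and ERF5 were highest in exa1 with NaCl, then wild type with NaCl, and the wild-type and exa1 libraries with NaCl overlapped for ERF8 and ERF5. ERF1A and ERF2 were highest in wild type with NaCl, without overlap with the next group, and lowest in exa1 at 39 °C. ERF104 and ERF105 were highest in wild type on MS, and for ERF104 the next 4 groups (exa1 on MS, wild type at 23 °C, wild type with NaCl and exa1 at 23 °C, in this order) overlapped from each to the next, with no overlap between the last of them and exa1 with NaCl. ERF6 was highest in wild type at 39 °C, then wild type with NaCl, and lowest in exa1 on MS. The ratio of the highest to the lowest group mean was 247 for RAP2.6, 54.0 for ERF105, 24.1 for ERF11, 18.8 for ERF5, 10.9 for ERF104, 9.89 for ERF2, 7.22 for ERF1A, 6.04 for ERF6, 5.06 for ERF8 and 4.47 for ERF4.

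Over the 24 libraries, which fall into 8 groups and share their libraries and depth, ERF6 stood apart from the rest. Pearson's r of log2 CPM had a median of 0.833 over the 36 pairs without ERF6 and ranged from -0.557 to 0.179, with a median of 0.042, over the 9 pairs with it. The closest pairs were ERF4 with RAP2.6 (0.966), ERF1A with ERF11 (0.956) and ERF1A with ERF2 (0.954). The neighbours ERF1A and ERF6 had an r of 0.004, and the neighbours ERF2 and ERF5 one of 0.810. ERF4 and ERF8, with their shared 14 bases, had 0.874. Among 15809 other genes, those with the most similar pattern were JAZ1, a jasmonate repressor, for RAP2.6 (r = 0.990), AT1G07135 for ERF1A (0.983), AAC2 for ERF4 (0.983), NAC014 for ERF104 (0.983), ADT4 for ERF5 (0.982), AT5G41100 for ERF8 (0.979), AT2G28400 for ERF11 (0.976), AT2G46630 for ERF105 (0.974), CCoAOMT1 for ERF2 (0.959) and EXLA2 for ERF6 (0.951). MYB51, a gene of indole glucosinolate synthesis and a reported ERF target, was the third closest to ERF1A (0.977).

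**Figure D5:**
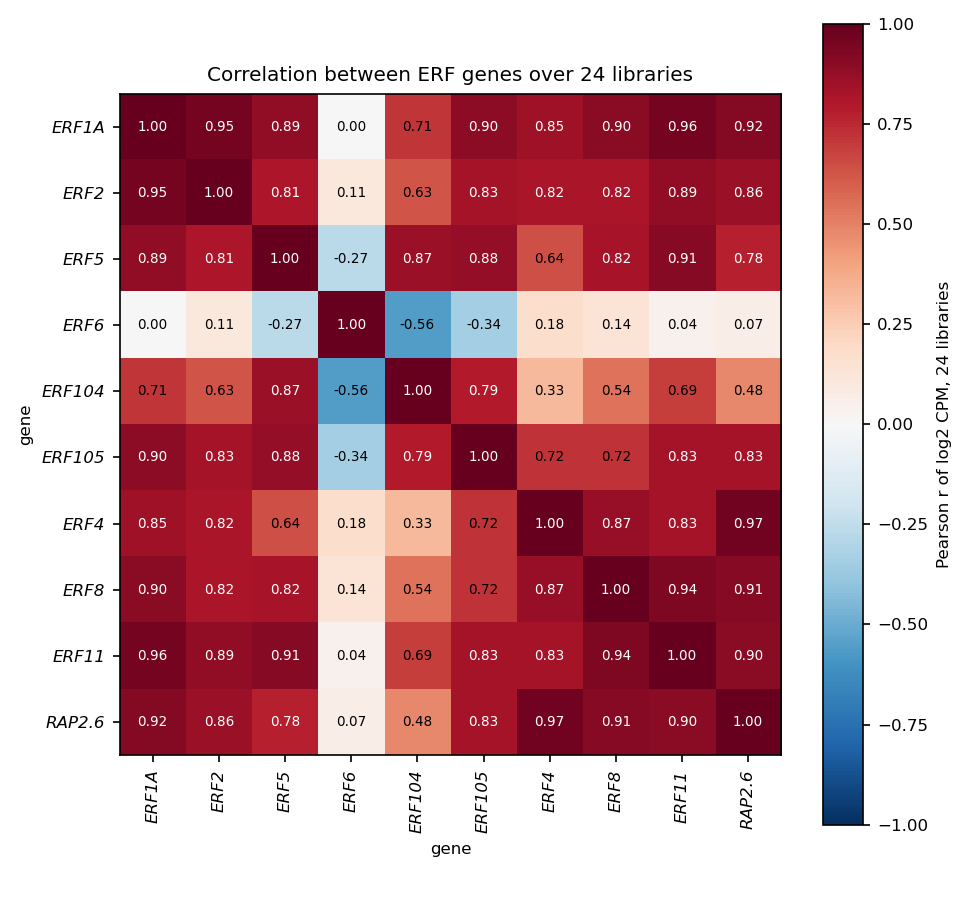
Pearson's r of log2 CPM between each pair of ERF genes over 24 libraries in 8 groups; colour and printed value give r. The row of ERF6 runs from -0.56 with ERF104 to 0.18, while most other pairs lie above 0.8.

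The genes around these ERFs were counted from lists, for the same tests. On MS 13.3% of all genes were higher and 16% lower in exa1, with salt 36.9% rose and 37.6% fell in the wild type, with heat 36.6% and 38.6%, and the salt interaction was called higher for 11.6% and lower for 9.61%. Counts from short lists for salt and heat that lie near these shares are no result about the list. Of 27 other ERF genes of the same subgroups, 21 passed the filter in the salt set, and in exa1 on MS 2 were higher and 12 lower, with ERF13 at log2 -1.32 ± 0.23 (adjusted p = 4.49e-07) and ERF1, an integrator of ethylene and jasmonate signals, at -1.22 ± 0.33 (0.00189). With salt 14 of the 21 rose and 6 fell in the wild type, where 36.9% and 37.6% of all genes did. RRTF1 (ERF109), a gene of the redox response, rose by log2 6.28 ± 0.11 (adjusted p = 2.82e-115) and ERF115, known from root stem cells, by 5.80 ± 0.16 (5.22e-82), both far more than any of the 10 members. With heat 15 of the 27 were tested, of which 4 rose and 6 fell in the wild type, near the 36.6% and 38.6% of all genes, ABR1, a repressor of abscisic acid responses, by 3.59 ± 0.29 and AT5G61590 by -2.48 ± 0.14 on the log2 scale.
Of 8 ethylene synthesis genes, 7 were lower in exa1 on MS and 1 higher, and ACS8, which makes the ethylene precursor ACC, was lower (log2 -1.98 ± 0.16, adjusted p = 8.57e-23). The interaction with salt was called higher for 6 of the 8 and lower for 0, at 2.07 ± 0.21 for ACS8. Salt raised 4 and lowered 4 in the wild type, near the shares of all genes, with ACS2 at 3.71 ± 0.10 and ACS6 at 3.37 ± 0.04. Of 11 ethylene receptors and signalling genes, 8 were lower in exa1 on MS and 1 higher, among them the receptor ERS2 (log2 -0.75 ± 0.08, adjusted p = 9.63e-17) and EBF2, which targets EIN3 for degradation (-0.73 ± 0.03, 1.07e-58). Here too the salt interaction was called higher for 6 and lower for 0.
Of 8 MAP kinase cascade genes, 3 were lower in exa1 on MS and 1 higher, with MKK9 at -0.46 ± 0.06 (adjusted p = 3.79e-10). In heated wild type 7 rose and 1 fell, the latter MKK9 at log2 -2.20 ± 0.17. Of 7 reported targets of these ERFs, all 7 rose with salt in the wild type, among them GA2OX6, a gibberellin-inactivating enzyme reported downstream of ERF6 (log2 1.94 ± 0.05), and WRKY33 (1.83 ± 0.03). On MS 4 of them were lower in exa1 and 2 higher: GA2OX6 was at -0.84 ± 0.06 and the defensin PDF1.2 at 4.17 ± 0.19, the second uncertain because near-identical copies can share its reads.
Of 18 rapid stress and touch genes, 16 were lower in exa1 on MS and 0 higher (median log2 -0.67), and the salt interaction was called higher for 14 and lower for 1 (median 0.51). Their part in the ERF differences was not tested.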

How the data were processed

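Whole-seedling RNA from 24 libraries was analysed from the 2 deposited tables. The deposited count table holds whole read counts per gene, which were used for all main tests, and the deposited FPKM table holds fragments per transcript length and library size, used for levels per length and in 1 alternative. HISAT2 2.0.4, HTSeq 0.6.1p1 and TAIR10 are named per the submitters' processing notes, and libraries were strand-specific per the labels' protocols. Depth was 17600922 to 21557382 assigned reads per library, and low counts limit ERF11 and ERF105.

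Counts were scaled by TMM and filtered by filterByExpr in edgeR 4.0.16 (R 4.3.3), and tested with its robust quasi-likelihood fit, made once each for the salt set, the heat set and the unstressed groups (12 libraries each) and once on all 24 for salt against heat. P-values were adjusted by Benjamini-Hochberg over all genes tested, with a threshold of 0.05. Standard errors were derived from each log2 fold change and its F statistic and are approximate, and 95% intervals use 8 degrees of freedom. CPM were scaled over all 24 libraries, so ratios of CPM can differ slightly from fitted folds. Correlations used log2 CPM with a prior count of 2 among genes with a mean of at least 5 CPM. Promoters, of 250 bases, came from the RefSeq TAIR10.1 genome.

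Alternatives were RLE size factors, no filter, DESeq2 1.42.0, limma 3.58.1 on log2(FPKM + 1), a single fit over 24 libraries, fits of the 6 compared libraries alone, the replicate number as a block, and each library left out. There was little sign that replicate numbers pair libraries: 1 of 54 same-numbered pairs had a correlation of deviations over 0.1. Some of these pairs were counted again among the unstressed groups, and pairs with different numbers were not compared. The model was also run on counts simulated from its own fitted spread, for 1 comparison of each fit. Such a run checks the code and cannot show whether that spread is right for these libraries. All 10 members are named in every comparison, and from each other list at most the 3 largest called changes per comparison. The members and lists were chosen with earlier results of these data known.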

Additional observations from a re-analysis of the deposited data

Results flagged for a closer look

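Each of the following effects was flagged because it differed between 2 groups by a test of the difference itself. The log2 response to salt was larger in exa1 than in the wild type for ERF11 (by 1.23), RAP2.6 (0.66), ERF5 (0.52), ERF4 (0.50), ERF8 (0.35) and ERF1A (0.23). In the fit over all 24 libraries ERF5, ERF8 and ERF1A no longer passed. The log2 difference between exa1 and the wild type was higher at 23 °C than on MS by 0.39 for ERF4, which did not pass in the fit over all 24 libraries either. Groups of 3 libraries are too small for a test of single outlying samples.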

How the results depend on the processing

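Of 2728 alternative values for the 140 member effects, 2602 kept their direction and side of the threshold, 44 no longer passed, 31 newly passed and 51 changed sign, 47 of these with an adjusted p over 0.05 both before and after. Counts of members called moved by over 1.5 times in few settings: the salt interaction from 6 to 3 and the interaction of genotype and unstressed set from 1 to 0 with all 24 libraries in 1 fit, and with FPKM the genotype difference at 23 °C from 3 to 0 and heat in the wild type from 6 to 10. With 1 library left out, the count ranged from 0 to 4 at 23 °C, 2 to 5 at 39 °C, 1 to 2 for the interaction with the unstressed set (2 without the first exa1 replicate at 23 °C) and 5 to 6 for the salt interaction, and was 9 on MS, 7 with NaCl, 10 for salt in either genotype and 0 for the heat interaction in every case.

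These log2 values changed sign. With FPKM, heat gave -0.38 (wild type) and -0.42 (exa1) for ERF4 and -0.67 and -0.41 for RAP2.6, the heat interaction 0.066 for ERF105, 23 °C against MS in the wild type -0.041 for ERF6, and salt against heat 0.38 for ERF6. Without a filter, ERF4 at 39 °C was -0.0011 and RAP2.6 with heat in the wild type -0.0037, and ERF4 at 39 °C was -0.0048 with only the 6 libraries compared. Salt against heat gave -0.032 for ERF4 with RLE and with DESeq2. The median log2 change of all genes with heat in the wild type was -0.06 with TMM and -0.69 with FPKM. In the heat interaction that median was -0.02 with TMM and 0.01 with FPKM. The causes of the sign changes were not tested. With 1 library left out, uncalled values crossed 0 for ERF5 with NaCl (-0.0062 to 0.18), ERF4 at 39 °C (-0.098 to 0.10), ERF2 (-0.18 to 0.15) and RAP2.6 (-0.13 to 0.21) with heat in the wild type, and ERF4 for salt against heat (-0.13 to 0.070). In the heat interaction they did so for ERF1A (-0.27 to 0.17), ERF4 (-0.18 to 0.025), ERF8 (-0.31 to 0.13), ERF105 (-1.01 to 0.047) and RAP2.6 (-0.0091 to 0.52), and in the interaction with the unstressed set for ERF1A (-0.026 to 0.17), ERF2 (-0.15 to 0.27), ERF8 (-0.058 to 0.16) and ERF105 (-0.21 to 0.28).

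With the replicate number as a block, 138 of the 140 calls were unchanged and no count of members moved. At 23 °C the block gave ERF6 an adjusted p of 0.0585 and RAP2.6 one of 0.0454, against 0.0474 and 0.0566 without it. The replicate numbers gave little sign of pairing the libraries.

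Over all genes, the counts called moved by over 1.5 times with all 24 libraries in 1 fit, from 6385 to 2760 on MS, 7794 to 4052 with NaCl, 4606 to 1612 for the salt interaction, 1598 to 3924 at 23 °C, 3280 to 5685 at 39 °C, 347 to 2154 for the heat interaction and 1559 to 682 for the interaction with the unstressed set. With only the 6 libraries compared they were 3216 at 23 °C and 1854 at 39 °C, and the heat interaction had 831 with DESeq2, 112 with FPKM, while FPKM gave 837 for the unstressed set. With 1 library left out the counts ranged from 759 to 2217 at 23 °C, falling by over 1.5 times without the second or the third wild-type replicate or any exa1 replicate at 23 °C. They ranged from 1741 to 4505 at 39 °C, falling as far without the second replicate of either genotype at 39 °C. The range was 954 to 2292 for the unstressed set, falling as far without any library on MS but the first wild-type replicate. It was 85 to 1481 for the heat interaction, moving as far without any library but the first wild-type replicates at 23 and 39 °C, and the shares of all genes given beside the member counts move with these. The share of called genes that were higher moved with FPKM from 49.6 to 38.2% for salt, 48.7 to 14.2% for heat, 50.2 to 33.3% for 23 °C against MS and 54.8 to 79.1% for salt against heat in the wild type, and with RLE from 51.9 to 63.1% for the heat interaction. ERF11 and ERF105 had at most 11 reads per library at 39 °C, which limits what can be seen of them there.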
